A study of Caenorhabditis elegans with 2 samples.

Results

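The 38 genes described here build, anchor or specify the muscles of Caenorhabditis elegans, and they were examined for peaks of the GFP-tagged T-box transcription factor TBX-9. They were chosen by name from known body wall and pharyngeal muscle genes, at a time when earlier results of these data were known, and are 38 of the 19973 nuclear protein-coding genes of the Ensembl annotation of the assembly WBcel235, also called ce11. The worms were of strain OP636, which carries the unc-119(tm4063) III allele and the integrated transgene array wgIs636, a source of TBX-9 with GFP and FLAG at its C-terminal end. Chromatin was sonicated and immunoprecipitated with an antibody against GFP from mixed-sex young adults, collected 63 hours after synchronization by L1 starvation. There were 2 libraries, biological replicates 1 and 2, in 1 group with no second condition, and the control experiment that the labels name was not analysed here. The material was the whole animal, so a peak gives no cell type of origin: binding in muscle nuclei cannot be told apart from binding in any other tissue. The tagged protein came from a transgene, and the peaks show where it was recovered, not whether a muscle gene was expressed.

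In nematode body wall muscle, thick filaments of myosin and paramyosin slide past thin filaments of actin, tropomyosin and troponin. Dense bodies, which correspond to the Z-discs of vertebrate muscle, and M-lines tie the filaments to integrin in the cell membrane and through it to perlecan in the basement membrane. The myogenic fate of these cells rests on the MyoD homolog HLH-1 and the SRF-like factor UNC-120, whereas the NK-2 homeobox factor CEH-22 acts in pharyngeal muscle. TBX-9 and its close relative TBX-8 are known for a shared role in embryonic morphogenesis, body wall muscle included. T-box proteins bind DNA around a GGTGTG core, and MyoD-type factors bind E-boxes of the form CANNTG.

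The 6 members with the strongest peaks near a start in the list of both libraries pooled were act-4, unc-15, lev-11, unc-97, unc-22 and tnt-2. For 4 of them the sequence 100 bp either side of the pooled summit is given, to show what such a site holds, and each of the 4 also had a peak near a start in both replicates. The windows of unc-15 and lev-11, which meet the same terms and outrank 3 of the 4, are not printed. They were read from the RefSeq sequence of ce11 on the plus strand, with matches to GGTGTG and to CANNTG, on either strand, in capitals.
act-4, chrX:4961083-4961283: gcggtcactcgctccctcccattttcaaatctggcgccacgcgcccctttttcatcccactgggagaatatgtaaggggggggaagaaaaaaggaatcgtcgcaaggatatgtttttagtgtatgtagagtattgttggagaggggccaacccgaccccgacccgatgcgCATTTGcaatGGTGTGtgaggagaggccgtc
unc-97, chrX:5593871-5594071: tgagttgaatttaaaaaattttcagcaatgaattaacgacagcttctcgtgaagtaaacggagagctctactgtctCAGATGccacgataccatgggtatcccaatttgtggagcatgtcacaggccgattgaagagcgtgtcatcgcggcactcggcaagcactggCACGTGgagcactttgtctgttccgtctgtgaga
unc-22, chrIV:11996044-11996244: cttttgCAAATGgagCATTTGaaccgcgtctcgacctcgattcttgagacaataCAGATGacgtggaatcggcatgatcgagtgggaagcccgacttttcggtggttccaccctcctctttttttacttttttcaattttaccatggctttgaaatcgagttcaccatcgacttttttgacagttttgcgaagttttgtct
tnt-2, chrX:8722770-8722970: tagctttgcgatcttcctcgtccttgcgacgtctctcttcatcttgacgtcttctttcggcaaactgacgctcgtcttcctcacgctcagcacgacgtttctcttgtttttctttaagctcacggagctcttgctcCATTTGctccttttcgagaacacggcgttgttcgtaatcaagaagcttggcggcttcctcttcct
The window at act-4 held 1 GGTGTG and 1 E-box, a CATTTG, and 53.7% of its bases were G or C. The windows at unc-97, unc-22 and tnt-2 held 0 GGTGTG and 2, 3 and 1 E-boxes, and their GC contents were 47.8%, 43.3% and 49.8%. The longer T-box sequence AGGTGTGA was in none of these windows. That all 4 hold an E-box is not typical of the members: 13 of the 26 windows at pooled start peaks hold one, and that of unc-15 does not.

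Each replicate and the pool of both had a relaxed list of peaks and background, of 25659, 30000 and 30000 peaks for replicate 1, replicate 2 and the pool. A stricter list of 169 peaks had passed the irreproducible discovery rate (IDR) threshold. Nearly all peaks were 390 bp wide. Rank 1 is the peak with the highest deposited signal value in its list, and the signal value is the authors' own, used only to order peaks within a list. Signal values ran from 18.1 to 3687 with a median of 25.1 in the pooled list, from 13.7 to 2477 in replicate 1 and from 9.37 to 127.6 in replicate 2. Most relaxed peaks were weak: the median q-value was 0.730 in the pooled list. The lists give no number of reads, and the depth behind each value is therefore unknown. A start peak is the strongest peak of a list whose summit lay within 1000 bp of any transcript start of the gene, and distances are negative upstream of the closest start and positive downstream.

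Start peaks were found at 26 of the 38 muscle genes in the pooled list, or 68.4%, against 51.4% of all protein-coding genes. The count was 22 (57.9%) in replicate 1, where the share of all genes was 47.3%, and 26 (68.4%) in replicate 2, where it was 51.3%. In each list the muscle genes were above the share of all genes, by the smallest margin in replicate 1. Both replicates had a start peak at 18 members (47.4%), against 31.9% of all genes. A summit of each replicate lay within 200 bp of the other at 11 members (28.9%), against 19.1% of all genes. When 6 near-identical or neighbouring genes (act-1, act-2, act-3, act-4, mlc-1 and mlc-2) were left out, 20 of 32 members (62.5%) kept a pooled start peak. The list was not tested against other genes, and these shares are descriptions.

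The members' peaks were absent from the strictest list. No member had an IDR peak near a start, where 0.501% of all genes had one, and no member had one inside the gene, where 0.446% had one. With so small a share of all genes, a count of 0 among 38 is near the background. At a deposited q-value of 0.05 or less, 1 member had a start peak in the pooled list (act-4), against 5.45% of all genes. The count was 2 in replicate 1 (act-4 and lev-11), against 4.78%, and 7 in replicate 2 (unc-15, unc-22, act-1, act-3, act-4, lev-11 and unc-112), against 8.3%. The counts of the pooled list and replicate 1 were near the background, and the 7 members of replicate 2 (18.4%) were above it. Members did reach the upper part of the pooled list more often than other genes: 16 (42.1%) had a start peak among its 10000 strongest peaks, against 23% of all genes.

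Among genes with a start peak, the median rank was 6889.5 for the 26 members in the pooled list, from 1262 to 29907, and 11389.5 for all 10266 such genes. It was 7126.5 for 22 members and 10106 for all genes in replicate 1, and 5288 for 26 members and 11749.5 for all genes in replicate 2. By the median, members therefore ranked nearer the strong end in each list. Among the strongest 1250 pooled peaks, however, 0% of members and 4.03% of all genes had a start peak. Without the 6 near-identical or neighbouring genes the median of the remaining members was 6889.5 in the pooled list, 7772 in replicate 1 and 9557.5 in replicate 2, so much of the difference in replicate 2 rested on those genes. Within 500 bp of a start the order was the same, with pooled medians of 8406.5 for members and 12147 for all genes, but within 250 bp it turned, with 15248 for 13 members and 12193.5 for all genes. It also turned among the 10000 strongest peaks, where the medians were 4904 for 16 members and 4304 for all genes.

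**Figure D1:**
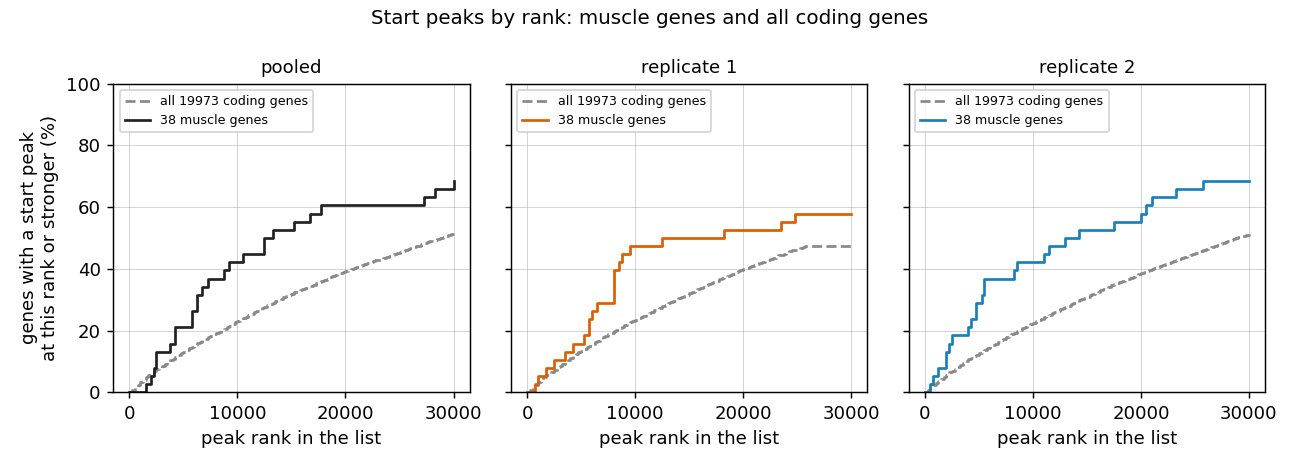
Share of genes (%, vertical axis) with a start peak at or above each peak rank (horizontal axis, linear) in the pooled list and in both replicate lists, for the 38 muscle genes (solid) and all 19973 protein-coding genes (dashed). In the pooled list the members' curve starts below that of all genes, with 0% against 4.03% at rank 1250 and 5.26% against 6.15% at rank 2000. At those ranks the members' shares rest on few genes. The members' curve lies above from rank 2250, with 7.9% against 6.77%. At rank 10000 the pooled curves reach 42.1% of members and 23% of all genes, and they end at 68.4% and 51.4%.

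The 3 fate genes were the group without any start peak. Neither hlh-1, unc-120 nor ceh-22 had one in the pooled list or in either replicate, so they belong to the 8 members with none, beside tnc-2, tni-4, pat-10, pat-2 and pat-4. Those 8 are 21.1% of the members, and 30.7% of all genes had none. With only 3 fate genes, and so many genes without one, their lack of a start peak is no result about fate genes.

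The gene hlh-1, on chromosome II from 4518574 to 4522528 on the plus strand with 4 annotated starts, encodes the nematode MyoD. Its nearest pooled summit lay at +2181 bp, inside the gene, with rank 27075, signal value 19.1 and q-value 0.925. In replicate 2 the nearest summit was at +2329 bp, with rank 9907 and signal value 15.2. Replicate 1 had no peak inside the gene, and its nearest summit was at +6504 bp with rank 11650 and signal value 19.1. The hlh-1 peak was thus among the weakest of the pooled list and was seen by 1 of the 2 libraries.

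The gene unc-120, on chromosome I from 8460225 to 8463015 on the plus strand, encodes an SRF-like MADS-box factor that acts with HLH-1. No list had a peak inside it. Its nearest summit was at -1119 bp in the pooled list, with rank 8455 and signal value 30.7. It was at the same place in replicate 2, with rank 4640 and signal value 19.1, whereas replicate 1 had its nearest at -2890 bp with rank 21424 and signal value 14.9. The site lay just outside the limit of 1000 bp, and replicate 1 did not share it.

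The gene ceh-22, on chromosome V from 10671918 to 10675769 on the plus strand with 5 annotated starts, encodes a pharyngeal NK-2 homeobox factor that switches on myo-2. It had no peak near a start or inside the gene in any list. The nearest summits lay at -5640 bp in the pooled list, at +6680 bp in replicate 1 and at +6838 bp in replicate 2. Their ranks were 25084, 12266 and 13964, and their signal values 19.9, 18.7 and 13.5. No list thus had a peak close to the gene, and the nearest ones were on different sides of it.

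Start peaks were found at most thick filament genes. Of the 11 members, 10 had a start peak in the pooled list (90.9%, against 51.4% of all genes), 9 in each replicate (81.8%, against 47.3% and 51.3%) and 7 in both (63.6%, against 31.9%). All 11 had a pooled peak inside the gene, where 52.4% of all genes had one. Most of the 11 were in the longest quartile of gene length, where 77.7% of all genes had one. At a q-value of 0.05 or less, 0 had a start peak in the pooled list or in replicate 1, against 5.45% and 4.78% of all genes. In replicate 2 there were 2 (18.2%), against 8.3%. The median pooled rank of the 10 was 6343. Paramyosin, the core protein of the thick filament, is encoded by unc-15 on chromosome I from 7376604 to 7383197 on the minus strand. Its pooled start peak had rank 1924, signal value 46.3 and q-value 0.0606, with the summit at -121 bp. Replicate 1 had its peak at the same position with rank 9290 and signal value 20.5, and replicate 2 had one at -169 bp with rank 1088, signal value 27.3 and q-value 0.00811. All 3 lists placed a summit just upstream of the start, but its rank was far better in replicate 2 than in replicate 1. Of all protein-coding genes, 5.91% had a pooled start peak as strong.

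The gene unc-22 encodes twitchin, a giant kinase of the muscle A-band, on chromosome IV from 11972697 to 12011007 on the minus strand, with 5 annotated starts. Its pooled start peak, the one printed above, had its summit at 11996144, +231 bp from an internal start and in a coding exon. It had rank 2313, signal value 44.0 and q-value 0.0893. Replicate 1 had a summit at 11996216 with rank 2281 and signal value 30.2, and replicate 2 one at 11996143 with rank 2569 and signal value 22.3. This site was thus seen by both libraries at close ranks. The strongest start peak of replicate 2 was another, at 12010491 in an intron, +389 bp from a start, with rank 436 and signal value 34.0. That position lay within 250 bp of the annotated noncoding RNA genes ZK617.11 and ZK617.23.

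The myosin heavy chains were less uniform. The body wall chains unc-54 (myosin B) and myo-3 (myosin A) each had a weak pooled start peak that only 1 replicate shared. For unc-54, the major body wall myosin, the pooled rank was 15248 with signal value 24.9 at -121 bp, and replicate 1 had rank 5063 and signal value 24.6 at -125 bp. Replicate 2 had none near its start, although its strongest peak inside the gene had rank 2529. For myo-3, the pooled rank was 12267 at +682 bp and the replicate 2 rank 11430 at +669 bp. The further heavy chain gene myo-5 had pooled rank 12254 at -989 bp and replicate 2 rank 4214 at -773 bp. Replicate 1 had no start peak at either myo-3 or myo-5. The light chain genes mlc-1 and mlc-2, which encode near-identical regulatory light chains, and mlc-3, which encodes the essential light chain, had start peaks in all 3 lists, with pooled ranks of 6051, 5663 and 6635. At mlc-1 the 3 summits lay between -221 and -66 bp. At mlc-2 and mlc-3 the summits of the replicates fell on opposite sides of the start. Of the 31-base stretches in the pooled start peak, 20.0% were repeated in the genome at mlc-2 and 3.89% at unc-95, and 0% at the other 24 members with one. The remaining member, unc-89, which encodes the obscurin homolog of the M-line, had pooled rank 7144 at -982 bp, replicate 1 rank 5689 at -983 bp and replicate 2 rank 17314 at +484 bp from its closest starts.

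Of the 12 thin filament genes, 8 had a start peak in the pooled list (66.7%, against 51.4% of all genes), 7 in replicate 1 (58.3%, against 47.3%), 9 in replicate 2 (75%, against 51.3%) and 7 in both replicates (58.3%, against 31.9%). At a q-value of 0.05 or less, 1 of them had a start peak in the pooled list (8.33%), near the 5.45% of all genes. There were 2 in replicate 1 (16.7%, against 4.78%) and 4 in replicate 2 (33.3%, against 8.3%). Those of replicate 2 were lev-11 and the actin genes act-1, act-3 and act-4, which are among the near-identical or neighbouring genes. The 8 with a pooled start peak were all 4 actin genes, the tropomyosin gene and 3 of the 7 troponin genes. For the troponin genes this is near what the share of all genes gives for 7. The best start rank of any member belonged to act-4, an actin gene expressed in body wall and other muscles, on chromosome X from 4960621 to 4964413 on the plus strand. Its pooled start peak had rank 1262, signal value 52.01 and q-value 0.0258, with the summit at +562 bp in an intron. The replicate 1 summit was at +479 bp in the same gene with rank 659 and signal value 40.9. In replicate 2 the strongest start peak lay upstream, at -163 bp, with rank 1788 and signal value 24.3. The gene thus ranked high in each library, but with the strongest summit at different places. Of all protein-coding genes, 4.08% had a pooled start peak as strong.

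The tropomyosin gene lev-11 lies on chromosome I from 14621169 to 14631094 on the minus strand and has 11 annotated starts, so its start windows cover more sequence than those of most members. Its pooled start peak had rank 2153, signal value 45.01 and q-value 0.0764 at +148 bp, in an intron. Replicate 1 had rank 982 and signal value 37.1 with a summit at a start, and replicate 2 had rank 2240 and signal value 23.02 at -38 bp from a different start. The strongest summits of the replicates were 714 bp apart, so the gene and not the site was shared. Of all protein-coding genes, 6.51% had a pooled start peak as strong.

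The actin genes act-1, act-2 and act-3 lie together on chromosome V and encode nearly the same protein, so reads could have been shared among them. The 31-base stretches of their start peaks, as of that of act-4, were nevertheless each found once in the genome. Their pooled ranks were 9100, 8535 and 16633. At act-1 the ranks of replicates 1 and 2 were 23465 and 734, at summits 278 bp apart. At act-3 the ranks were 1725 and 2434, and at act-2 replicate 1 had no start peak and replicate 2 had rank 3804. Of the 3, act-3 alone had a strong start peak in both replicates, with summits at -614 and -116 bp from its closest starts. The start peaks of act-1 and act-2 lay upstream, within 250 bp of annotated noncoding RNA genes, T04C12.16 and T04C12.25 at act-1 and T04C12.18, T04C12.23 and T04C12.24 at act-2.

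Troponin makes the thin filament respond to calcium, through a calcium-binding subunit (troponin C), an inhibitory subunit (troponin I) and a tropomyosin-binding subunit (troponin T). Both troponin T genes among the members had start peaks in all 3 lists. At tnt-2, on chromosome X from 8721546 to 8723550 on the minus strand, the pooled peak had rank 3507, signal value 39.5 and q-value 0.171 at +680 bp, in a coding exon. Replicate 1 had rank 7905 and signal value 21.6 at +555 bp, and replicate 2 had rank 4669 and signal value 19.1 at +682 bp. The summits of the pool and replicate 2 were thus 2 bp apart, and 9.83% of all genes had a pooled start peak as strong. At the second troponin T gene, mup-2, the pooled rank was 29907, the weakest of any member, and the replicate ranks were 8354 and 20410.

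Among the troponin I genes, unc-27 had start peaks in all 3 lists, with pooled rank 6001 and summits from +859 to +882 bp. The gene tni-3 had one in replicate 2 alone, of rank 23060 at -845 bp. The pharyngeal tni-4 had none near its start but had a peak inside the gene at rank 7511 in the pooled list and at rank 1440, with signal value 25.6, in replicate 2. The troponin C genes pat-10, of body wall muscle, and tnc-2, of the pharynx, had no start peak and no peak inside the gene in any list. Their nearest pooled summits were at -1760 and -2279 bp. With 2 such genes, and no start peak in any list at 30.7% of all genes, this is no result about troponin C.

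Attachment genes had a start peak at 8 of 12 members in the pooled list and in replicate 2 (66.7%, against 51.4% and 51.3% of all genes). In replicate 1 there were 6 of 12 and in both replicates 4 of 12 (33.3%), which are near the 47.3% and 31.9% of all genes. A pooled peak inside the gene was found at 11 of the 12 (91.7%), against 52.4% of all genes. Most of the 12 were in the longest quartile of gene length, where 77.7% of all genes had one. The strongest pooled start peak of the 12 was at unc-97, which encodes a PINCH-type LIM protein of integrin attachments, on chromosome X from 5593133 to 5594965 on the plus strand. Its pooled peak had rank 2285, signal value 44.2 and q-value 0.0882, with the summit at 5593971, +838 bp from the start in a coding exon. Replicate 1 had its summit at 5593969 with rank 4208 and signal value 25.8, and replicate 2 had it at 5593971 with rank 8172 and signal value 16.2. The replicate summits were 2 bp apart, the closest of any member. Of all protein-coding genes, 6.85% had a pooled start peak as strong.

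The kindlin gene unc-112, whose product acts with UNC-97 and PAT-4 at the integrin tail, had pooled rank 4101 at -334 bp. Its replicate ranks, 24683 at -336 bp and 1773 at -497 bp, were far apart. The alpha-actinin gene atn-1, for a dense body protein that cross-links actin, had pooled rank 5686 at -925 bp and replicate ranks 3402 and 10754. The perlecan gene unc-52, for the basement membrane proteoglycan under the muscle, had pooled rank 13206 and replicate ranks 8654 and 4685. It has 7 annotated starts, and the strongest start summits of the replicates were 15215 bp apart, so the gene and not the site was shared. These 3 genes and unc-97 were the attachment members with a start peak in both replicates.

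The remaining attachment genes were seen by 1 replicate or by none. The vinculin gene deb-1 and the LIM protein gene unc-95 had start peaks in the pooled list (ranks 28076 and 27191) and in replicate 1 (5898 and 12336) but not in replicate 2. The parvin gene pat-6 and the gene dim-1, for an immunoglobulin-domain protein near dense bodies, had them in the pooled list (17558 and 10388) and in replicate 2 (12840 and 5059) but not in replicate 1. The beta integrin gene pat-3 and the M-line zinc finger gene unc-98 had them in replicate 2 alone, with ranks 25643 and 19883. The alpha integrin gene pat-2 and the integrin-linked kinase gene pat-4 had none in any list, although both had a weak pooled peak inside the gene, of ranks 19438 and 11584. For pat-4, the nearest summit of replicate 2 was a strong one, of rank 294 and signal value 37.6, at +5394 bp, past the far end of the gene. The integrin genes and the kinase were thus among the members with no pooled start peak.

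Start peaks were rarer at the 5 members assigned to the pharynx here than at the others. Of myo-1, myo-2, ceh-22, tnc-2 and tni-4, 1 had a pooled start peak (20%), against 25 of the 33 other members (75.8%) and 51.4% of all genes. In replicate 1 there were 2 (40%), near the 47.3% of all genes, and in replicate 2 there was 1 (20%), against 51.3%. A pooled peak inside the gene was found at 3 of the 5 (60%), against 52.4% of all genes. The gene with a pooled start peak was myo-2, a pharyngeal myosin heavy chain, with pooled rank 4145 and signal value 37.7 at +71 bp in the 5′ UTR. Its replicate ranks were 5630 at -167 bp and 20985 at +139 bp, with signal values of 23.9 and 11.4, and its pooled summit lay within 250 bp of the noncoding RNA genes T18D3.13 and T18D3.14. The second pharyngeal heavy chain, myo-1, had a start peak in replicate 1 alone, of rank 7772 at -722 bp. The heavy chain gene myo-5, with start peaks in the pooled list and replicate 2 (ranks 12254 and 4214), was counted among the others. With 5 genes, the contrast rests on few members and on this assignment, and it was not tested.

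**Figure D2:**
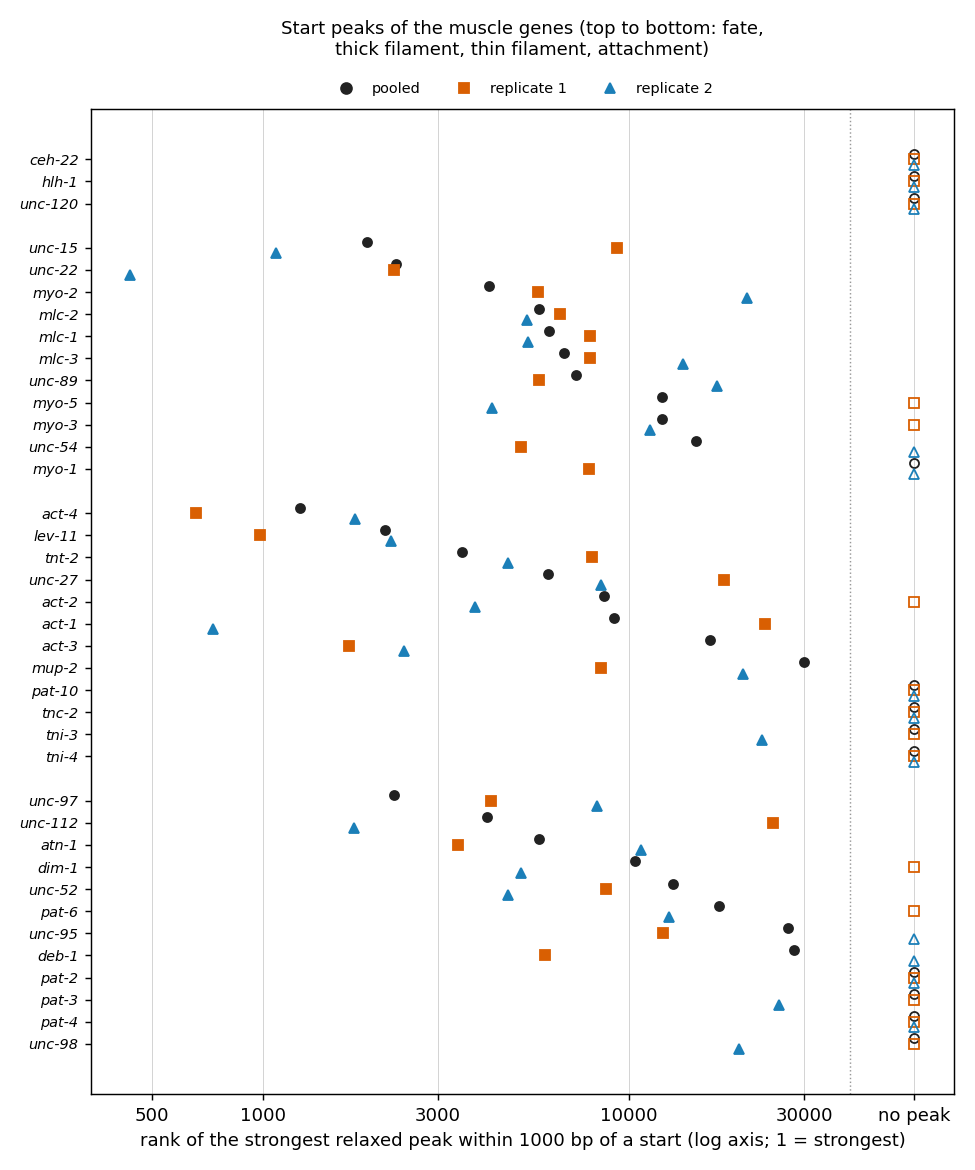
Rank of each member's start peak (log axis, 1 is the strongest) in the pooled list (black circles), replicate 1 (orange squares) and replicate 2 (blue triangles), with members grouped from top to bottom as fate, thick filament, thin filament and attachment genes and open symbols for no peak. All symbols of the 3 fate genes are open. The symbols of a gene often lie far apart, as at act-1 with 734 and 23465 in the replicates, at summits 278 bp apart.

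The replicates ordered the members differently. Over the 18 members with a start peak in both replicates, Spearman's rho between the ranks was -0.04, against 0.35 over all 6372 such genes. The points share the same pair of libraries and are genes, not replicates. The strongest start summits of the replicates were a median of 516 bp apart at those members and 368 bp apart at all genes, and lay within 200 bp of each other at 6 of 18 members and at 2413 of 6372 genes. Over these 18 members the ranks in the libraries thus did not move together.

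Start peaks lay on both sides of the starts. Of the 26 pooled summits, 10 (38.5%) were upstream of the gene, 1 in a 5′ UTR, 9 (34.6%) in a coding exon and 6 (23.1%) in an intron. The shares over all genes with a start peak were 39.5% upstream, 30.4% in a coding exon and 20.7% in an intron, close to those of the members. The median distance from the closest start, whatever the side, was 410 bp for members and 430 bp for all genes, and 10 members (38.5%) and 32.7% of all genes had the summit within 250 bp. No member's summit was closer to the start of another coding gene. At 5 of the 26 (act-1, act-2, myo-2, myo-3 and myo-5) an annotated noncoding RNA gene lay within 250 bp of the summit. The same share was not counted over all genes, so this is no result about the members. At the edge of the window, myo-5 at -989 bp, unc-89 at -982 bp and atn-1 at -925 bp lay just inside, and the nearest pooled summits of unc-120 at -1119 bp, tni-3 at -1124 bp and tni-4 at +1390 bp lay just outside.

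**Figure D3:**
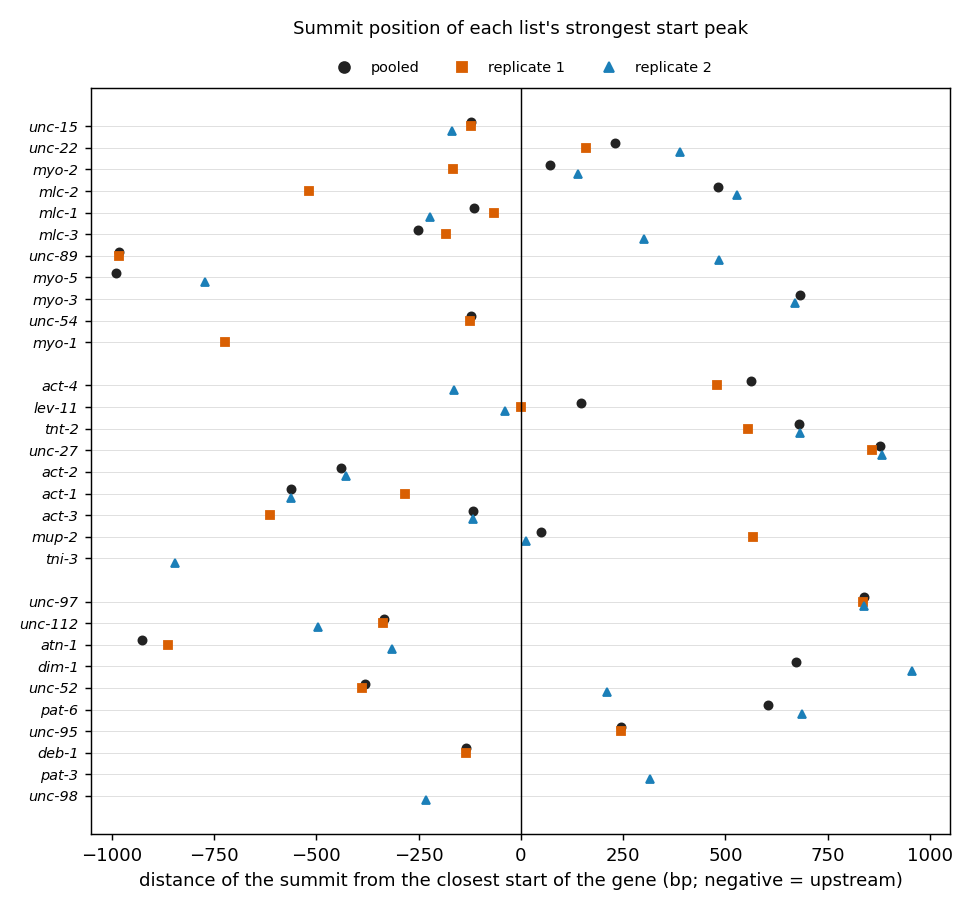
Distance of the start peak's summit from the closest start of the gene (bp, linear axis, negative upstream) in the pooled list (black circles), replicate 1 (orange squares) and replicate 2 (blue triangles), for the 30 members with a start peak in any list. The 3 symbols coincide at unc-97, between +836 and +838 bp, and fall on opposite sides of the start at mlc-2, from -519 to +529 bp.

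Most members also had peaks inside the gene: 30 (78.9%) in the pooled list, against 52.4% of all genes, 23 (60.5%) in replicate 1, against 47.7%, and 28 (73.7%) in replicate 2, against 54%. Muscle genes are long, with a median of 3822 bp against 2027 bp for all genes, and long genes hold more peaks. Among the 20 members in the longest quartile of all genes, of 3637 bp and more, 18 (90.0%) had a pooled peak inside and 77.7% of all genes of that quartile did. In the same quartile 14 of the 20 members and 57.5% of all genes had a start peak. The 121 pooled peaks inside members came to 0.434 per kb over 279 kb, and the rate over all genes was 0.340 per kb. It was 0.287 against 0.281 in replicate 1 and 0.477 against 0.344 in replicate 2. The rate inside members was thus above that of all genes in the pool and replicate 2 and about equal to it in replicate 1. No list had a peak inside act-1, ceh-22, unc-120, pat-10, tnc-2 or tni-3.

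Members also differed from other genes in the starts and the bases around them. A single window of 2001 bp covered the starts of 25 of 38 members and of 14723 of 19973 genes. Per kb of start window, the pooled list had 0.446 peaks at members and 0.350 at all genes, replicate 1 had 0.365 and 0.303, and replicate 2 had 0.490 and 0.340. The median GC content within 1000 bp of the starts was 37.9% for members and 35.5% for all genes. It was 40.0% for the 26 members with a pooled start peak and 36.0% for the 12 without, and 36.4% and 34.5% for all genes with and without one. Within 100 bp of the pooled summit it was 47.3% for members, from 30.3% to 61.7%, and 39.8% for all genes with a start peak. GC content therefore moved with the presence of a peak, among members and among all genes, and its part in the members' share was not tested.

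The longest members were unc-89, unc-22 and unc-52, of 55.2, 38.3 and 37.1 kb. The pooled list had 17 peaks inside unc-89, 20 inside unc-22 and 15 inside unc-52. The 4 members with the best pooled rank inside the gene were unc-22, act-4, lev-11 and unc-97, and the last 3 of these peaks are the start peaks given above.

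Inside unc-22 the strongest peak of any member had its summit at 12005399 on chromosome IV in an intron, beside a tRNA gene. It had rank 372, signal value 74.3 and q-value 0.0137 in the pooled list, and rank 312 and signal value 49.8 with the same summit in replicate 1. In replicate 2 the summit was at 12005524, in a coding exon, with rank 1144 and signal value 27. All 3 lists thus had this site among their best peaks, and 0.921% of all genes had a pooled peak inside as strong. The tRNA gene ZK617.t1 covers 12005598 to 12005669 on the minus strand. The pooled and replicate 1 summits lay 199 bp from it and that of replicate 2 lay 74 bp from it. It is printed because it is the feature at the strongest peak, from the RefSeq sequence of ce11 on the minus strand, with its match to GTTCNANNC, the core of the internal B box of tRNA promoters, in capitals.
ZK617.t1, chrIV:12005598-12005669: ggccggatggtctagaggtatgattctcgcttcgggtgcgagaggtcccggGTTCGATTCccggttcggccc
Peaks at tRNA genes were the rule in these lists. Of 612 tRNA genes, 83.7% had a pooled summit within 250 bp, with a median best rank of 1464, and the shares were 78.3% and 75.5% in replicates 1 and 2. The pooled peak ended 5 bp short of the tRNA gene and none of its 31-base stretches was repeated in the genome, whereas all of those of the tRNA gene were, in up to 4 copies. Recovery of TBX-9 at the intron of unc-22 and at the tRNA gene cannot be told apart by position.

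In unc-52, replicate 1 had a peak of rank 905 and signal value 37.9 in an intron, with the summit at 14664212 on chromosome II. The pooled list had it at 14664214 with rank 6323 and signal value 33.5. The best peak of replicate 2 inside the gene was elsewhere, at 14662263, with rank 2936 and signal value 21.5. In unc-89 the pooled and replicate 2 lists shared an intronic site, at 4075243 and 4075237 on chromosome I, with ranks 3460 and 2321, and the best peak of replicate 1, of rank 5689, was elsewhere. The snoRNA gene C24G7.6 inside unc-89 had a summit 65 bp away in the pooled list and in replicate 2, with ranks 17356 and 11481, and none in replicate 1. Of the best sites inside these 3 genes, only that of unc-22 was thus a strong site of both libraries.

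**Figure D4:**
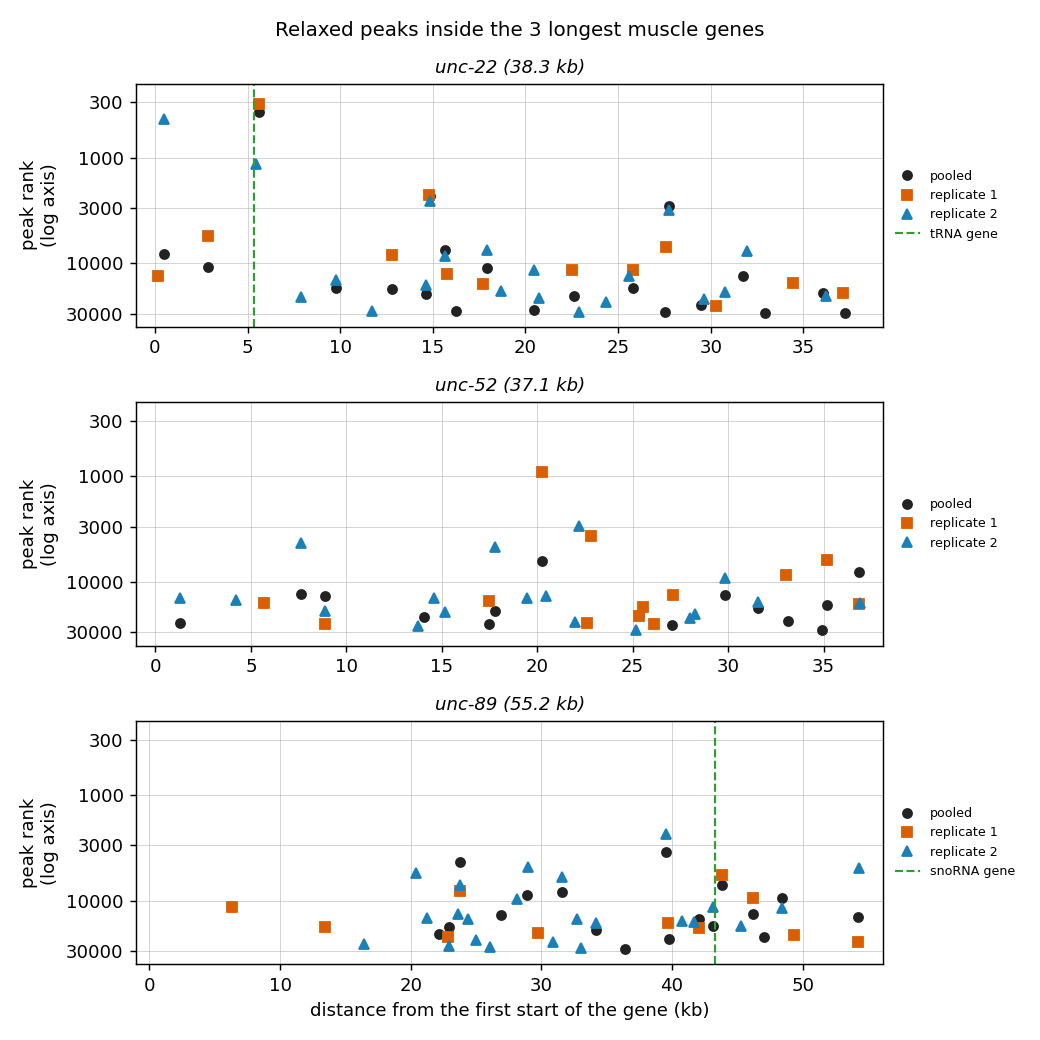
Peaks inside unc-22, unc-52 and unc-89, by distance from the first start of the gene (kb, linear axis) and rank (log axis, strongest at the top) in the pooled list (black circles), replicate 1 (orange squares) and replicate 2 (blue triangles), with dashed lines at the tRNA gene in unc-22 and the snoRNA gene in unc-89. In unc-22 the pooled and replicate 1 peaks of ranks 372 and 312 stand beside the tRNA gene line, and the strongest peak in unc-89 has rank 2321, in replicate 2.

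The T-box and E-box letters were searched on both strands. The T-box letters and the general E-box were about as frequent at the members' peaks as at all peaks or rarer. The E-box form CAGCTG had a higher share, and apart from CANNTG the shares of members rest on 2 windows or fewer. The sequence AGGTGTGA was in 0 of the 26 windows of 100 bp either side of a member's pooled summit and in 0.453% of the 29990 such windows of all nuclear pooled peaks. Its inner part GGTGTGA was in 0 and 1.73%, and GGTGTG, which lies within both, in 1 (act-4, 3.85%) and 6.07%. The general E-box CANNTG was in 13 of the 26 and in 58.5%, and CAGCTG, a form of it that MyoD-type factors favour, in 2 (mup-2 and unc-27, 7.69%) and 5.54%. For motifs as rare as the T-box forms, 26 windows hold few or no matches at the background share.

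In promoter windows, from 250 bp before to 50 bp after the first start, AGGTGTGA was in 0 of 38 members and 0.776% of 19973 genes. The shorter GGTGTGA was at act-1 and atn-1 (5.26%, against 2.29% of all genes), and GGTGTG was at act-1, atn-1, lev-11, unc-97 and unc-98 (13.2%, against 7.6%). The E-box CANNTG was in 25 (65.8%), against 69.4% of all genes, those of hlh-1, unc-120 and ceh-22 among them, and CAGCTG was in 0, against 5.53%. A match describes letters in a window and is not a site, and no match says nothing of the factor.

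Among chromosomes, X held 10 members, of which 9 had a pooled start peak (90.0%), against 55.9% of all genes there. Chromosome V had 7 of 9 (77.8%, against 47.8%), IV 3 of 4 (75%, against 49.4%) and I 5 of 8 (62.5%, against 52.6%). Chromosomes II and III had 1 of 3 and 1 of 4, below the 50.3% and 56.1% of all genes. The counts per chromosome are small.

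A further list of 40 genes that are not members was drawn up as muscle and muscle attachment genes. It holds genes for filament assembly, acetylcholine receptors and calcium channels, but not all are known for muscle, act-5 below among them. The 40 genes also had start peaks more often than all genes. Of these, 30 (75%) had a start peak in the pooled list, 29 (72.5%) in replicate 1, 26 (65.0%) in replicate 2 and 20 of the 40 in both. The shares of all genes were 51.4%, 47.3%, 51.3% and 31.9%. In replicate 1 this was above the 57.9% of the members, in the pooled list above their 68.4% and in replicate 2 below their 68.4%. No start peak in any list was found for 4 of the 40 (10%), against 8 of the 38 members and 30.7% of all genes. A peak inside the gene was present in 33 (82.5%) in the pooled list, 32 (80%) in replicate 1 and 31 (77.5%) in replicate 2. The shares of all genes were 52.4%, 47.7% and 54%. No gene of the 40 had an IDR peak near a start or inside the gene, where 0.501% and 0.446% of all genes had one. The 3 with the best pooled start ranks were tnt-3, act-5 and cap-2. The troponin T gene tnt-3 had ranks 473, 447 and 2673 in the pooled list and replicates 1 and 2, better than any member in the pooled list. The actin gene act-5, known for its role in the intestine, had ranks 1296, 3098 and 2837, and cap-2, for a capping protein subunit, had 1686, 4746 and 1898.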

How the data were processed

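The files were narrowPeak lists deposited by the authors. Per the notes deposited beside them, relaxed lists for replicate 1, replicate 2 and the pool were derived from alignments with a control, and the IDR list was derived from those. No aligner or peak caller is named in the sources used here. Scaling of the deposited signal is not stated, so the authors' signal value was used for ranks within a list. The deposited −log10 q was turned back into a q-value, and summits follow the deposited offsets. Lists on the older build ce10 were not used here. No peak of the ce11 lists ended beyond its chromosome.

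Genes and starts came from Ensembl release 115 and sequences from RefSeq, both of WBcel235; coordinates count from 1. Of 41 names in the list of further muscle genes, 40 were found. The members, their roles and the lists were chosen with earlier results of these data known, so no test was run, and shares are set beside those of all protein-coding genes. All 38 members are accounted for by role, and full values are given for the fate genes, the 6 best pooled start ranks and the 4 best pooled ranks inside a gene. There were 2 libraries, and nothing but their own agreement measures error; intervals that need depth are not given. Alternatives changed the distance, the starts, the peak position, the number of peaks, the members and the list. The counting was tested on simulated peaks. Python 3.11.15 with numpy 2.4.6, pandas 2.3.3, scipy 1.17.1 and matplotlib 3.10.9 was used.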

Additional observations from a re-analysis of the deposited data

How the results depend on the processing

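The count of members with a pooled start peak, 26 of 38, stayed between 20 and 26 with a distance of 500 bp, with the first start alone, with the peak midpoint, without the near-identical or neighbouring genes (20 of 32) and without unc-22, unc-52, unc-89, lev-11 and deb-1, whose starts are spread (21 of 33, 63.6%, an alternative chosen after seeing the data). It was 13 within 250 bp, 16 among the 10000 strongest peaks and 0 in the IDR list, and from 22 to 26 with 1 replicate left out. In each setting but the IDR list the members' share stayed above that of all genes. The count with a peak inside the gene, 30, was 17 among the 10000 strongest peaks and 0 in the IDR list, and from 23 to 28 with 1 replicate left out. The count with a start peak in both replicates, 18, was 7 within 250 bp, 10 among the 10000 strongest peaks, and 11 and 9 where the summits also had to lie within 200 and 100 bp of each other.

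The median pooled start rank, 6889.5, was 8406.5 within 500 bp and from 5288 to 7126.5 with 1 replicate left out. It stood on the other side of the median of all genes within 250 bp (15248 against 12193.5) and among the 10000 strongest peaks (4904 against 4304), and the cause was not tested. With no member in the IDR list, that list gave no median. Of the values under alternatives, 20 were within the limits set for no change, some of those given above included. These limits were wide: a count of 12 within 500 bp in place of 18, for a start peak in both replicates, was still within them.

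No paired analysis was possible because there is 1 group and no second condition. Depth is unknown, so the lack of a peak at a gene is not evidence that nothing was bound. With relaxed lists near 30000 peaks, 51.4% of all genes have a start peak, and single members carry little information.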
